A study of Mus musculus with 6 samples.

Results

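A set of 10 antioxidant defence genes was followed, Nqo1, Gclc, Gclm, Txnrd1, Srxn1, Prdx1, Sod1, Sod2, Cat and Gpx1, chosen by their gene names from a deposited table that holds 54429 genes. All 10 members were found, and all 10 passed the filter on low values that left 16254 genes. The tissue was V1, the primary visual area of the cortex, taken at 9 weeks of age from C57BL females. Each mouse had been injected there with an adeno-associated virus (AAV) that delivers a short hairpin RNA to cells near the injection. There were 3 groups of 2 libraries each: shCSB/shNDN, with AAV hairpins against CSB and necdin, shCSB, with an AAV hairpin against CSB, and shControl, with an AAV control hairpin. All 3 groups thus carry an injection, a virus and a hairpin, and the promoter that drives the hairpins and the share of cells reached are not given in the sources used here. CSB, the product of Ercc6, acts in transcription-coupled DNA repair, and its loss causes Cockayne syndrome. Necdin is the product of the imprinted neuronal gene Ndn, and the series title links its overactivity to that syndrome.

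Superoxide that leaks from respiration or is made by phagocytes is turned into hydrogen peroxide by superoxide dismutases, and the peroxide is then removed by catalase, glutathione peroxidases and peroxiredoxins. The last of these draw on glutathione and thioredoxin, which are kept reduced with NADPH. The transcription factor NRF2 (gene Nfe2l2), held down by KEAP1 in unstressed cells, pairs with small MAF proteins at antioxidant response elements and drives many of these genes. In brain this response is known to be strong in astrocytes and weak in mature neurons.

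Sites that NRF2 can bind often share a short core, and the promoters of the members were searched for a single form of it. RefSeq windows on GRCm38.p6, reaching 250 bases before and 50 after a transcription start, were matched by symbol for 9 of the 10 members, with 11 windows in all. The core TGACNNNGC, searched on both strands, was present for 5 members, and 14.0% of the 27025 genes with such a window hold it (12.4% of 32851 windows). Each site is shown in the direction of its gene, with 10 bases on either side and the core in capitals; all 5 lie on the reverse strand and so read GCNNNGTCA.
Gclm (chr3:122245413-122245441, plus strand): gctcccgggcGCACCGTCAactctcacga
Txnrd1 (chr10:82859104-82859132, plus strand): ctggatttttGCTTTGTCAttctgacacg
Srxn1 (chr2:152105542-152105570, plus strand): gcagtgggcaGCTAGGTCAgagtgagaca
Prdx1 (chr4:116685456-116685484, plus strand): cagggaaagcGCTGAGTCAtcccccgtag
Sod1 (chr16:90220696-90220724, plus strand): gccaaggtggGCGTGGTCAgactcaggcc
The first base of the core lies at -134 for Gclm, -92 for Txnrd1, 29 for Srxn1, -133 for Prdx1 and -56 for Sod1, counted from a start at 1. Only the Prdx1 core also holds the AP-1 motif TGAGTCA, among the 5 shown. The Srxn1 window holds TGAGTCA as well, before the start and outside the core shown. Forms of the core with another base in place of its first C were not searched, nor were sites beyond these windows. The counts thus cover TGACNNNGC within the windows alone. The Txnrd1 core is in 1 of its 3 windows. Such matches describe the letters of the window and are not evidence of binding.

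The libraries rested on 15731788 to 17365285 reads, recovered from the deposited values. Ercc6 had FPKM values (fragments scaled to gene length and library size) of 1.61 and 1.81 in the libraries labelled shCSB/shNDN, 1.29 and 1.61 in those labelled shCSB, and 1.46 and 1.22 in shControl, so it does not bear out the CSB labels. Ndn was at 16.8 and 41.0, against 47.9 and 38.1 and against 56.1 and 49.8, and lay below the other libraries in replicate 1 of shCSB/shNDN only. Every direction below rests on these labels. The libraries labelled shCSB/shNDN stood apart from the others and from each other. Across genes, which are not independent replicates, their Pearson's r with each other was 0.939, below that of any other of the 15 pairs of libraries. Mitochondrially encoded genes held 1.41% of the reads in replicate 2 of that group, against 4.95% to 7.65% in the other 5 libraries. The summed FPKM of 9 markers of excitatory neurons was 2536 and 3368 in shCSB/shNDN, 3075 and 2856 in shCSB, and 3152 and 3544 in shControl, so RNA of these markers was present in every library. Nrgn carried most of these sums, and without it, a step chosen after the values were seen, the other 8 markers summed to 787 and 534 in shCSB/shNDN, 836 and 825 in shCSB, and 919 and 1012 in shControl. Of the 9 markers, 3 were lower at an unadjusted p under 0.05 in shCSB/shNDN against shControl (0 past the adjusted threshold), against 6.71% of genes. In that comparison 4 markers lay below without overlap, against 23.7% of genes. The part of these markers in the values of the members was not tested.

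In shControl cortex the 10 members covered a wide range of levels. FPKM divides reads by a deposited length per gene, 1441 bases for Gpx1, which is its whole span, 3970 for Sod1 and 10008 for Sod2. An order between genes thus depends on these lengths. In replicate 1 of shControl, Sod1 had 4173 reads and Gpx1 1911. By mean FPKM the order was Gpx1 at 80.1 ± 1.88 (SD, n = 2), Sod1 at 61.3 ± 4.65, Prdx1 at 48.9 ± 4.63 and Srxn1 at 34.2 ± 6.42. Sod2 followed at 15.4 ± 0.986, Cat at 14.3 ± 1.09, Gclc at 8.98 ± 0.327, Gclm at 6.82 ± 0.410, Txnrd1 at 5.31 ± 0.268 and Nqo1 at 1.70 ± 0.396. Among neighbours in this order, only Sod2 and Cat overlapped between the shControl libraries. Over all 6 libraries, Sod1 and Prdx1, Cat and Gclc, Gclc and Gclm, and Gclm and Txnrd1 overlapped as well.

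**Figure D1:**
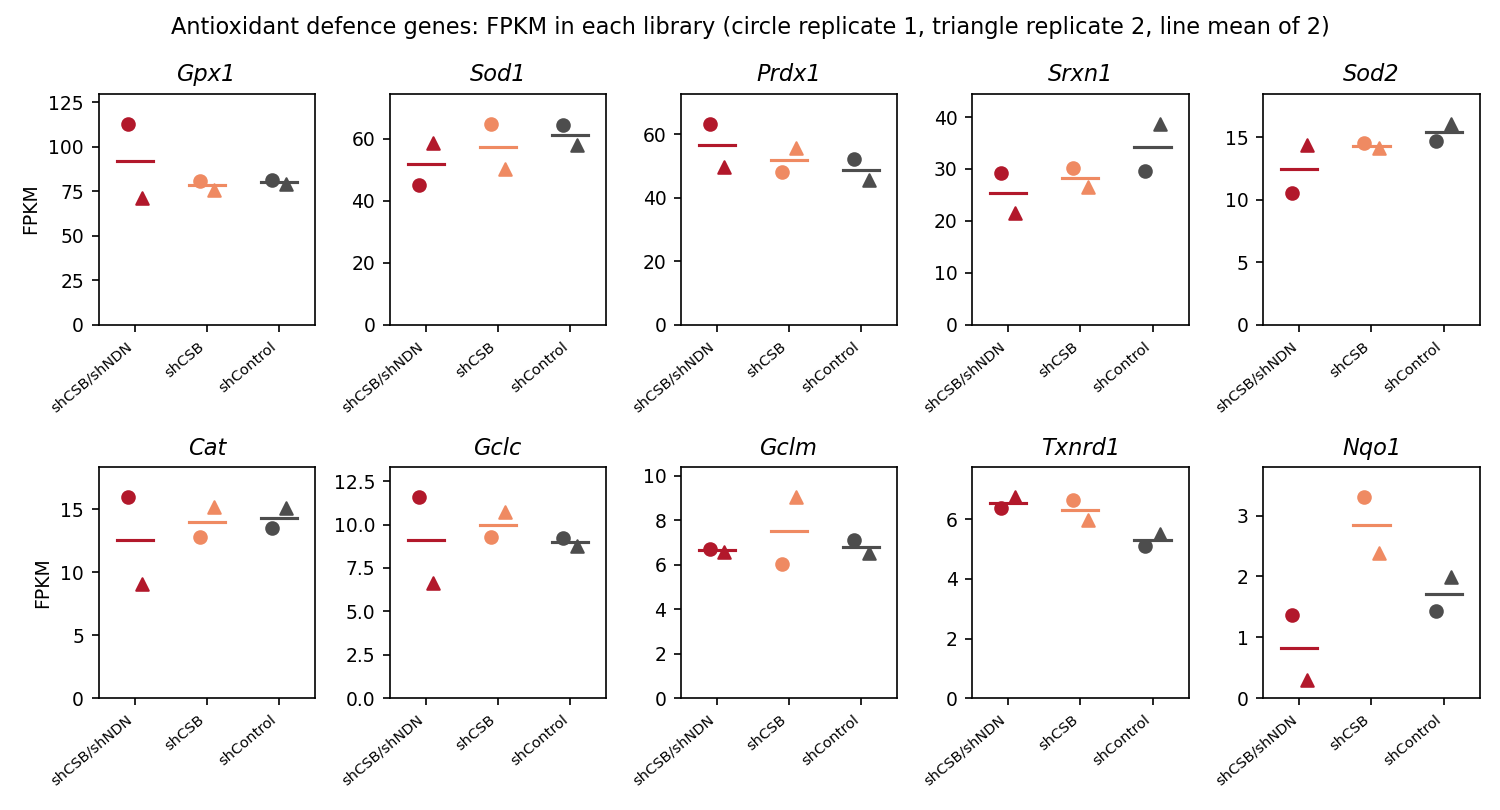
FPKM of each member (vertical axis, from 0, its own scale in each panel) in the 2 libraries of shCSB/shNDN, shCSB and shControl; circles are replicate 1, triangles replicate 2, and lines the mean of 2. The 2 libraries of shCSB/shNDN are the highest and the lowest of the 6 for Gpx1, Cat and Gclc, and Nqo1 reaches 0.301 in replicate 2 of shCSB/shNDN.

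The superoxide dismutases showed no change past the threshold of an adjusted p of 0.05. Sod1 (ENSMUSG00000022982, GRCm38 chromosome 16, 90220754 to 90226329) codes for the cytosolic copper and zinc enzyme. It had FPKM values of 45.1 and 58.7 in shCSB/shNDN, 64.9 and 50.1 in shCSB, and 64.6 and 58.0 in shControl. The lowest value was that of replicate 1 of shCSB/shNDN, and the groups overlapped. Its log2 change, on the scale of log2(FPKM + 1) here and below, was -0.25 ± 0.22 (SE) for shCSB/shNDN against shControl, with a 95% interval from -0.77 to 0.28 (adjusted p = 0.659 by limma), and it was -0.058 without replicate 1 of shCSB/shNDN and -0.43 without replicate 2. The gene overlaps Scaf4 on the opposite strand, and the strand setting of the counting is not given in the sources used here, so its value is uncertain to that extent. Sod2 (ENSMUSG00000006818, GRCm38 chromosome 17, 13006846 to 13040063), the manganese enzyme of mitochondria, was at 10.5 and 14.4 in shCSB/shNDN, 14.6 and 14.1 in shCSB, and 14.7 and 16.1 in shControl. Both other groups lay below shControl without overlap, and replicate 1 of shCSB/shNDN was the lowest library. The change was -0.30 ± 0.19 for shCSB/shNDN against shControl (interval -0.76 to 0.16, limma adjusted p = 0.531) and -0.096 ± 0.19 for shCSB against shControl (interval -0.55 to 0.36, adjusted p = 1). Leaving out replicate 1 or 2 of shCSB/shNDN gave -0.091 or -0.51 for the first, and leaving out replicate 1 or 2 of shControl gave -0.16 or -0.034 for the second.

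The peroxide-removing enzymes Gpx1, Cat and Prdx1 were highest in replicate 1 of shCSB/shNDN, and their group means did not differ past the threshold. Gpx1 (ENSMUSG00000063856, GRCm38 chromosome 9, 108338903 to 108340343), a selenoenzyme that reduces hydrogen peroxide with glutathione, was at 113 and 71.0 in shCSB/shNDN, 81.0 and 75.5 in shCSB, and 81.4 and 78.8 in shControl. The shCSB/shNDN libraries were the highest and the lowest of the 6, and the other 4 lay close together. The change was 0.16 ± 0.25 against shControl (interval -0.44 to 0.76, limma adjusted p = 0.814) and 0.19 ± 0.25 against shCSB (interval -0.41 to 0.80, adjusted p = 0.849). Cat (ENSMUSG00000027187, GRCm38 chromosome 2, 103453849 to 103485160), the catalase of peroxisomes, was at 16.0 and 9.10 in shCSB/shNDN, 12.8 and 15.2 in shCSB, and 13.5 and 15.1 in shControl. Again the 2 libraries of shCSB/shNDN were the highest and the lowest. The change was -0.22 ± 0.27 against shControl, with an interval from -0.86 to 0.42 (limma adjusted p = 0.743).

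Prdx1 (ENSMUSG00000028691, GRCm38 chromosome 4, 116685544 to 116700822) codes for a cytosolic peroxiredoxin that reduces peroxide with thioredoxin. It was at 63.3 and 49.7 in shCSB/shNDN, 48.2 and 55.6 in shCSB, and 52.1 and 45.6 in shControl. Replicate 1 of shCSB/shNDN was the highest and replicate 2 lay inside the range of the other groups. The change was 0.20 ± 0.20 against shControl (interval -0.28 to 0.68, limma adjusted p = 0.695), and it was 0.027 without replicate 1 of shCSB/shNDN and 0.37 without replicate 2. Srxn1 (ENSMUSG00000032802, GRCm38 chromosome 2, 152105516 to 152111376), the sulfiredoxin that restores overoxidized peroxiredoxins, was at 29.3 and 21.5 in shCSB/shNDN, 30.2 and 26.4 in shCSB, and 29.7 and 38.7 in shControl. Both libraries of shCSB/shNDN lay below both of shControl, the higher of them by a small margin. The change was -0.42 ± 0.22, with an interval from -0.96 to 0.12 (limma adjusted p = 0.460), and -0.26 ± 0.22 for shCSB against shControl (adjusted p = 1). Without replicate 1 or 2 of shCSB/shNDN the first was -0.63 or -0.20, and without replicate 1 or 2 of shControl the second was -0.44 or -0.068.

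The subunits of glutamate-cysteine ligase, the rate-limiting enzyme of glutathione synthesis, did not show a common pattern over the libraries. Gclc (ENSMUSG00000032350, GRCm38 chromosome 9, 77754535 to 77794485), the catalytic subunit, was at 11.6 and 6.66 in shCSB/shNDN, 9.26 and 10.7 in shCSB, and 9.21 and 8.75 in shControl. The shCSB/shNDN libraries were the highest and the lowest, and both shCSB libraries lay above both of shControl, the lower of them by a small margin. The change was -0.024 ± 0.25 for shCSB/shNDN against shControl and 0.13 ± 0.25 for shCSB against shControl (limma adjusted p = 0.976 and 1). The second was 0.23 without replicate 1 of shCSB and 0.039 without its replicate 2. Gclm (ENSMUSG00000028124, GRCm38 chromosome 3, 122245557 to 122270732), the modifier subunit, was at 6.71 and 6.59 in shCSB/shNDN, 6.03 and 9.05 in shCSB, and 7.11 and 6.53 in shControl. Its shCSB libraries were the lowest and the highest of the 6, and the other 4 lay within a narrow range. Gm17494 on the opposite strand overlaps the gene, which leaves its reads uncertain in the same way as for Sod1. The pseudogene Gm6061 overlaps it on the same strand, at a mean FPKM of 0.0. The change was -0.031 ± 0.21 for shCSB/shNDN against shControl and 0.11 ± 0.21 for shCSB against shControl (adjusted p = 0.964 and 1).

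Txnrd1 was the only one of the 10 members whose libraries lay above both shControl libraries in both other groups. Of all genes kept, 18.3% lay so in shCSB and 20.7% in shCSB/shNDN, and the share that did so in both was not computed. Txnrd1 (ENSMUSG00000020250, GRCm38 chromosome 10, 82833951 to 82897712) codes for the cytosolic selenoenzyme that reduces thioredoxin with NADPH. It was at 6.38 and 6.75 in shCSB/shNDN, 6.63 and 5.96 in shCSB, and 5.12 and 5.50 in shControl, each on 582 to 818 reads. Replicates lay close together, and the 4 hairpin libraries against CSB overlapped each other. The change was 0.26 ± 0.15 for shCSB/shNDN against shControl, with an interval from -0.10 to 0.63, and 0.21 ± 0.15 for shCSB against shControl, with one from -0.16 to 0.57 (limma adjusted p = 0.496 and 1). By limma-voom on the recovered reads these were 0.42 and 0.33, also without passing (adjusted p = 0.359 and 1.00). Both comparisons use the same shControl libraries. Gm38560, at a mean FPKM of 1.26, overlaps the gene on the opposite strand and leaves its reads uncertain without a known strand setting. Gm47073, also on that strand, was at 0.0. Eid3, at 0.15, overlaps on the strand of Txnrd1, so strand cannot separate their reads.

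Nqo1, the least abundant member, had the widest range. Nqo1 (ENSMUSG00000003849, GRCm38 chromosome 8, 107388225 to 107403206) codes for a quinone reductase of the cytosol and is a standard readout of NRF2 activity. It was at 1.36 and 0.301 in shCSB/shNDN, 3.30 and 2.39 in shCSB, and 1.42 and 1.98 in shControl. The 3 groups did not overlap: shCSB was highest, and replicate 1 of shCSB/shNDN lay just under the lower shControl library. The reads behind these values were 36 and 8, against 84 and 66 and against 36 and 46. The exact Poisson interval at 95%, which covers counting error only, was 0.130 to 0.593 FPKM for replicate 2 of shCSB/shNDN. It lay clear of the interval of every other library, of which the lowest began at 0.951. That replicate held 435 genes with 1 read, against 1597 to 1839 in the other libraries. Whether its low counts follow Poisson error was not tested.

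The change of Nqo1 was -1.12 ± 0.31 for shCSB/shNDN against shCSB, with an interval from -1.88 to -0.37 (limma unadjusted p = 0.0105, adjusted p = 0.488). Against shControl it was -0.62 ± 0.31 for shCSB/shNDN (interval -1.38 to 0.14, adjusted p = 0.439) and 0.51 ± 0.31 for shCSB (interval -0.25 to 1.26, adjusted p = 1). None of the 3 passed the threshold. The added 1 understates changes of a gene this low: by limma-voom the 3 changes were -2.05, -1.23 and 0.82, and with 0.1 in place of 1 they were -1.93, -1.22 and 0.71, again not past it. Without replicate 1 of shCSB/shNDN, so that replicate 2 stood alone for its group, the first was -1.55 and the second -1.05 (adjusted p = 0.0307 and 0.0445), in fits that called 893 and 1808 genes in all. Without replicate 2 they were -0.69 and -0.19 (adjusted p = 0.261 and 0.711). The change for shCSB against shControl was 0.33 without replicate 1 of shCSB and 0.68 without its replicate 2.

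**Figure D2:**
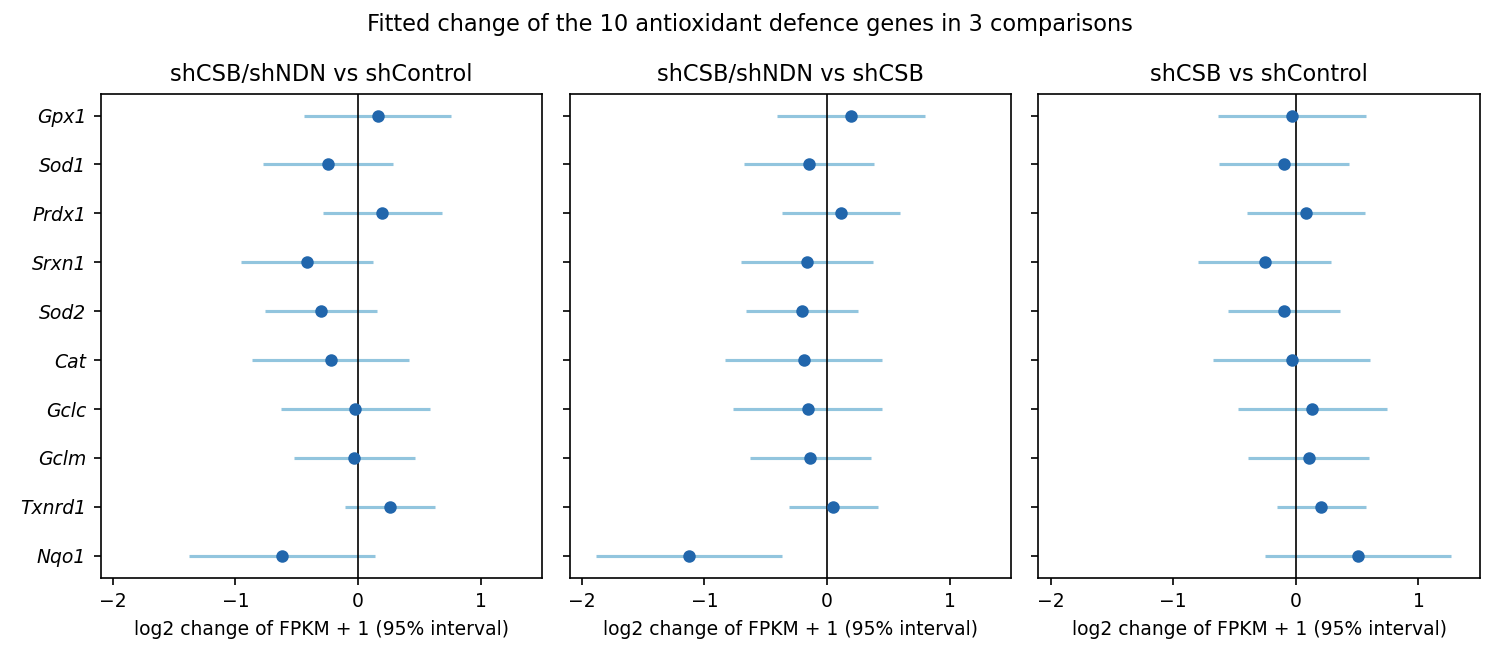
Fitted log2 change of each member (horizontal axis, scale of log2(FPKM + 1), point) with its 95% interval (bar) for shCSB/shNDN against shControl, shCSB/shNDN against shCSB and shCSB against shControl. The interval leaves out 0 for Nqo1 in shCSB/shNDN against shCSB, from -1.88 to -0.37, and includes 0 in the other 29 cases.

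The genes nearest to Nqo1 in their course over the 6 libraries were Cfap157, Gm42853, 2900022M07Rik, Gm20257 and Camk1g. Nearness was the Euclidean distance between values of log2(FPKM + 1) centred over the 6 libraries, 0.369 for Cfap157 and 0.474 for Camk1g. Cfap157 was at 1.35 and 0.361 in shCSB/shNDN, 2.30 and 1.83 in shCSB, and 1.10 and 1.66 in shControl. Camk1g, a kinase of the calcium and calmodulin family, was at 12.6 and 7.75, against 22.7 and 16.3 and against 17.5 and 18.3. Both were lowest in replicate 2 of shCSB/shNDN and highest in replicate 1 of shCSB, as was Nqo1. Their choice by nearness over these same libraries favours such a match, so it is not a separate result.

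Counts over the list were set beside the same counts over all genes kept. For shCSB/shNDN against shControl, 0 of 10 members passed an adjusted p of 0.05, where 0.00615% of genes did. That was 1 gene, the microRNA locus Mir6929, named after its value was seen. At an unadjusted p under 0.05, 0 members were higher and 0 lower, against 6.71% of genes higher and 6.71% lower. In that comparison 1 member lay with both libraries above both of shControl, Txnrd1, and 3 with both below, Nqo1, Srxn1 and Sod2, where 20.7% of genes lay above and 23.7% below. The median change of the members was -0.13, beside -0.0075 for all genes kept. This median turned to 0.066 without replicate 2 of shCSB/shNDN, was -0.080 without replicate 1 of shControl and was -0.025 by limma-voom, where that of all genes was 0.093.

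For shCSB/shNDN against shCSB, 0 of 10 members passed, as did 0% of genes (1371 genes had an unadjusted p under 0.05, and limma-voom also called 0). At an unadjusted p under 0.05, 1 member was lower, Nqo1, and 0 were higher, where 3.69% of genes were lower and 4.74% higher. Only Nqo1 lay without overlap in this comparison, below, against 18.4% of genes below and 16.5% above. The median change was -0.15, beside -0.0083 for all genes. It turned to 0.034 without replicate 2 of shCSB/shNDN, with 6 of 10 members above 0 in place of 3, and was -0.069 without replicate 2 of shCSB. For shCSB against shControl, 0 members and 0% of genes passed (316 genes had an unadjusted p under 0.05, and limma-voom called 0). No member had an unadjusted p under 0.05, against 1.21% of genes higher and 0.738% lower. Gclc, Txnrd1 and Nqo1 lay above without overlap and Sod2 below, against 18.3% of genes above and 18.1% below. The median change was 0.026, beside -0.0035. It was 0.11 after quantile normalization, with 8 of 10 members above 0 in place of 5, 0.11 by limma-voom, 0.11 without replicate 1 of shCSB and 3.3e-05 without its replicate 2, and 0.074 and 0.015 without replicates 1 and 2 of shControl. Each pair of comparisons shares 2 libraries, so these counts are not independent of each other. The 5 members with the searched form of the core in a promoter window lay between -0.42 for Srxn1 and 0.26 for Txnrd1 in shCSB/shNDN against shControl. In that comparison the 4 members with a window and no core of this form in it lay between -0.62 for Nqo1 and 0.16 for Gpx1. Sites beyond the windows were not searched.

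The largest spread among the members lay between the 2 libraries labelled shCSB/shNDN. The median size of the difference between replicates, in log2(FPKM + 1), was 0.42 for the members in shCSB/shNDN, 0.20 in shCSB and 0.13 in shControl, and 0.34, 0.18 and 0.14 for all genes kept. Replicate 1 minus replicate 2 in shCSB/shNDN was 0.86 for Nqo1, 0.75 for Cat, 0.72 for Gclc and 0.66 for Gpx1, against -0.42 for Sod2 and -0.37 for Sod1. Txnrd1 and Gclm differed least, at -0.070 and 0.023. Replicate 1 was above all 4 libraries of the other groups for 4 members (26.1% of genes) and below them for 3 (28.2% of genes). Replicate 2 was above them for 1 member (33.2% of genes) and below them for 5 (34.2% of genes). For Gclc, Cat and Gpx1 replicate 1 lay above and replicate 2 below all of these, a pattern that 6.78% of genes had, and 0 members had the opposite one, which 8.09% of genes had.

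**Figure D3:**
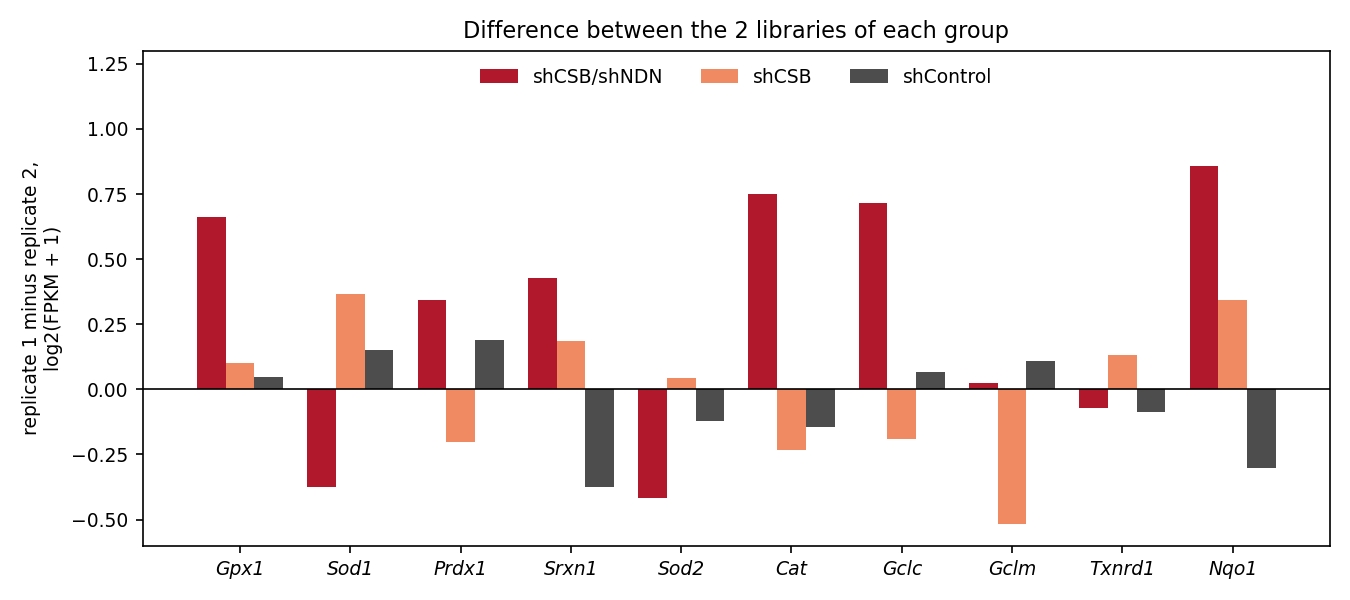
Replicate 1 minus replicate 2 in log2(FPKM + 1) (vertical axis) for each member, with bars for shCSB/shNDN, shCSB and shControl from left to right. The bars of shCSB/shNDN reach 0.86 for Nqo1, 0.75 for Cat and 0.72 for Gclc, and point down for Sod1, Sod2 and Txnrd1.

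Markers of microglia, the resident phagocytes of the brain, differed in the same pair of libraries. The summed FPKM of 15 microglia markers, all 15 kept and none at 0 in any library, was 3804 and 1069 in shCSB/shNDN, 428 and 485 in shCSB, and 337 and 330 in shControl. Not every marker rose in replicate 2 of shCSB/shNDN. There P2ry12, at 3.51, was lowest of the 6 libraries, and Siglech, at 3.02, lay between the shControl values of 3.19 and 2.69. That of 15 genes of activated microglia was 9654 and 4530, against 1611 and 1667 and against 1553 and 1449, with Itgax and Clec7a at 0 in replicate 1 of shControl and Cst7 at 0 in its replicate 2. Of 10 reactive astrocyte genes, 7 were kept, and their list summed to 266 and 84.6, against 35.3 and 39.3 and against 22.2 and 21.03. In shCSB against shControl, 10 of the 15 microglia markers and 5 of these 7 genes also lay above without overlap, against 18.3% of genes. At an unadjusted p under 0.05, 0 and 3 of them were higher, against 1.21% of genes, with 0 past the adjusted threshold. Of 10 markers of blood monocytes and neutrophils, 4 were kept, and the list summed to 3.27 and 1.20, against 2.59 and 4.54 and against 1.12 and 1.49. The sum for the meninges and fibroblasts was also higher than in shControl in both other groups. Of 10 markers, 9 were kept, and the list summed to 19.2 and 16.9 in shCSB/shNDN, 22.2 and 18.0 in shCSB, and 10.4 and 7.27 in shControl. All 9 lay above shControl without overlap in shCSB, against 18.3% of genes, and 8 did so in shCSB/shNDN, against 20.7% of genes. At an unadjusted p under 0.05, 7 were higher in shCSB (1.21% of genes) and 6 in shCSB/shNDN (6.71% of genes), with 0 past the adjusted threshold. Among the members, Txnrd1 lay above shControl in both groups, and Nqo1 and Gclc in shCSB only. The part of these markers in those values was not tested. The 10 oligodendrocyte markers summed to 1301 and 1002 in shCSB/shNDN, 949 and 1235 in shCSB, and 1314 and 1303 in shControl, so that shControl lay highest by a small margin. The sums of inhibitory neuron markers (534 and 1229, against 928 and 708 and against 944 and 877), endothelial and mural markers (151 and 202, against 152 and 166 and against 154 and 156) and red blood cell genes (186 and 272, against 145 and 242 and against 183 and 282) overlapped between the groups.

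The 11 astrocyte markers summed to 974 and 728, against 668 and 838 and against 731 and 797. Gfap, which reactive astrocytes also raise, was at 372 and 152, against 76.3 and 56.3 and against 52.2 and 48.4. Without Gfap, a step chosen after the values were seen, the other 10 summed to 602 and 576, against 592 and 782 and against 679 and 749. Replicate 1 of shCSB/shNDN, with the highest Gpx1, Cat, Gclc and Prdx1, thus also had the highest sums of microglial and reactive astrocyte genes, but not of astrocyte markers other than Gfap. The same library was the lowest for Sod1 and Sod2. Replicate 2 of that group, with the next highest of those microglial and reactive astrocyte sums, was the lowest for Gpx1, Cat, Gclc, Srxn1 and Nqo1. The part of these cells in the values of the members was not tested. In tissue RNA, more cells of a type and more RNA per cell cannot be told apart.

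**Figure D4:**
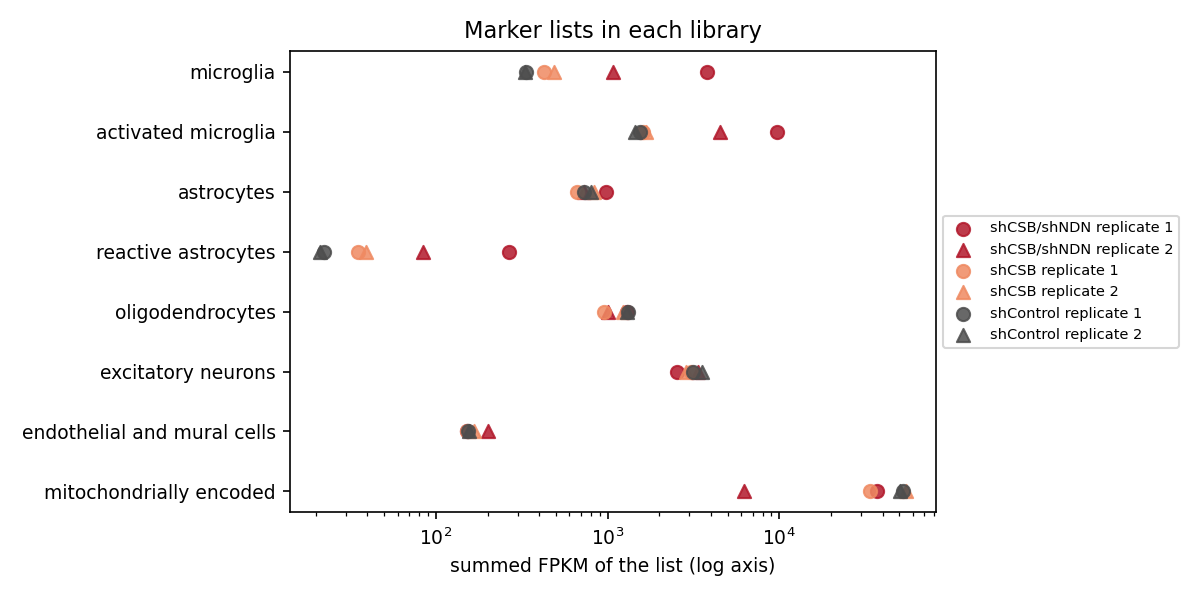
Summed FPKM of each marker list (horizontal axis, logarithmic) in the 6 libraries; colours are groups, circles replicate 1 and triangles replicate 2. Microglia markers reach 3804 and 1069 in shCSB/shNDN against 330 to 485 in the other 4 libraries, and mitochondrially encoded genes are lowest in replicate 2 of shCSB/shNDN.

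The wider redox system, 111 further genes in 6 lists of which 108 were kept, also held 0 genes past the threshold in each comparison. At an unadjusted p under 0.05, 10 were higher and 8 lower in shCSB/shNDN against shControl, 7 higher and 5 lower in shCSB/shNDN against shCSB, and 1 higher and 0 lower in shCSB against shControl, beside the shares of all genes given above. Their median changes were 0.017, 0.036 and -0.055. Of the 15 NRF2 regulators, all kept, 2 were higher at that level in shCSB/shNDN against shControl and 0 lower, against 6.71% of genes each way. Nfe2l2 itself was at 11.4 and 4.19 in shCSB/shNDN, 3.57 and 4.80 in shCSB, and 2.98 and 3.62 in shControl, so that replicate 2 of shCSB/shNDN lay within the range of shCSB. Its change was 0.90 ± 0.40 against shControl in shCSB/shNDN (adjusted p = 0.385 by limma). Keap1 was at 14.0 and 12.2, against 13.5 and 12.04 and against 14.7 and 15.6.

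Maff, a small MAF partner of NRF2, and Trim21, a ubiquitin ligase, were the 2 regulators with the smallest p. Maff was at 4.16 and 1.85 in shCSB/shNDN, 1.36 and 0.628 in shCSB, and 0.687 and 0.826 in shControl, with a change of 1.13 ± 0.33 against shControl (limma adjusted p = 0.294). Trim21 was at 1.39 and 1.09, against 0.329 and 0.756 and against 0.182 and 0.252, on 88 and 69 reads, 20 and 50 reads, and 11 and 14 reads. For both genes the 2 libraries of shCSB/shNDN lay above the other 4, which their choice by p over these same libraries favours.

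Targets of NRF2 outside the members held the smallest p of the wider lists. Of 21 such genes, 19 were kept, with a median of 0.22 for shCSB/shNDN against shControl. At an unadjusted p under 0.05, 4 were higher and 1 lower, against 6.71% of genes each way. Ftl1, the light chain of ferritin, was at 452 and 455 in shCSB/shNDN, 186 and 184 in shCSB, and 178 and 159 in shControl. Its replicates agreed closely in each group, and the change was 1.42 ± 0.20 against shControl and 1.29 ± 0.20 against shCSB (limma adjusted p = 0.130 and 0.273). Ftl1 has processed copies in the genome, so its reads are uncertain. Hmox1, which breaks down heme, was at 24.6 and 5.47, against 4.67 and 4.17 and against 2.60 and 3.44. The change of Hmox1 was 1.69 ± 0.58 against shControl (adjusted p = 0.321), and replicate 1 was far above replicate 2, as for Nfe2l2 and the microglia markers. Cbr3, a carbonyl reductase, was instead highest in replicate 2, at 12.2 and 24.1 in shCSB/shNDN, 7.55 and 7.26 in shCSB, and 11.6 and 7.58 in shControl. Blvrb, a biliverdin reductase, was at 5.96 and 7.04, against 4.78 and 3.19 and against 4.33 and 4.17.

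Thioredoxin and peroxiredoxin genes, 22 in all, gave 3 higher and 1 lower at that level in shCSB/shNDN against shControl. The share of all genes was 6.71% each way. Txnip, which binds and inhibits thioredoxin, was the only gene of the 108 at an unadjusted p under 0.05 in shCSB against shControl. It was at 7.43 and 7.63 in shCSB/shNDN, 6.69 and 7.66 in shCSB, and 4.60 and 4.20 in shControl. The 4 libraries with the CSB hairpin thus lay together above shControl, which its choice by p favours. The change was 0.66 ± 0.15 for shCSB/shNDN and 0.60 ± 0.15 for shCSB (limma adjusted p = 0.243 and 1). Prdx4, the peroxiredoxin of the endoplasmic reticulum, was at 12.3 and 10.9, against 8.38 and 7.74 and against 7.96 and 7.41. Its change was 0.53 ± 0.16 against shControl (limma adjusted p = 0.294). Msra, which repairs oxidized methionine, was at 7.27 and 4.82, against 10.2 and 9.08 and against 11.2 and 10.7, with a change of -0.78 ± 0.21 (adjusted p = 0.268).

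The 32 genes of the glutathione system, all kept, had a median of -0.20 in shCSB/shNDN against shControl. At an unadjusted p under 0.05, 0 were higher and 5 lower, against 6.71% of genes each way. Gstm7, a glutathione transferase, was at 8.24 and 8.76 in shCSB/shNDN, 11.0 and 13.1 in shCSB, and 14.1 and 14.8 in shControl. The change was -0.70 ± 0.16 (limma adjusted p = 0.241). Mgst3, a microsomal transferase, was at 75.4 and 39.8, against 134 and 85.5 and against 121 and 128. Gstm5 was at 86.6 and 106, against 128 and 161 and against 150 and 157. For all 3 genes both libraries of shCSB/shNDN lay below the other 4. Their choice by the smallest p over these same libraries favours this, so it is not a separate result. Gstm genes are close relatives whose reads may be shared.

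The remaining lists were smaller, and their counts are at an unadjusted p under 0.05. Of all genes kept, 6.71% were higher and 6.71% lower in shCSB/shNDN against shControl, and 4.74% and 3.69% against shCSB. Of 9 genes that included Sod3 and copper chaperones, 1 was higher, Ucp2, a carrier of the inner mitochondrial membrane, at 46.9 and 7.53 in shCSB/shNDN, 3.83 and 4.62 in shCSB, and 4.36 and 4.84 in shControl. Among 12 genes of NADPH supply, 11 were kept and 1 was lower in shCSB/shNDN against shControl, the pentose phosphate enzyme Tkt, at 24.1 and 19.0, against 25.5 and 24.1 and against 28.2 and 33.2. Me3, a mitochondrial malic enzyme, was the 1 lower gene in shCSB/shNDN against shCSB, at 2.66 and 2.11 in shCSB/shNDN and 3.30 and 3.64 in shCSB.

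**Figure D5:**
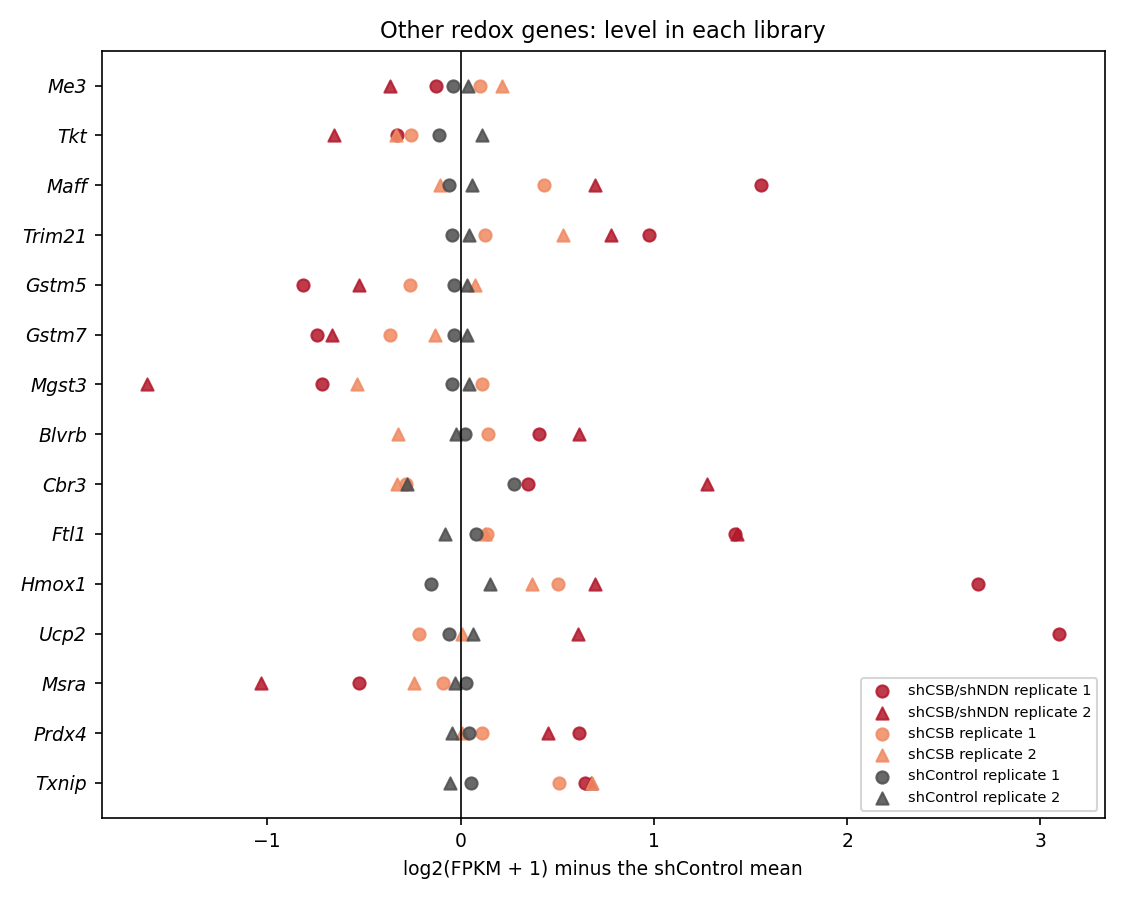
Level of each named gene of the wider redox system in the 6 libraries as log2(FPKM + 1) minus the mean of the 2 shControl libraries (horizontal axis); colours are groups, circles replicate 1 and triangles replicate 2. Ftl1, Prdx4 and Gstm7 have close pairs in shCSB/shNDN, while Hmox1 and Ucp2 are far higher in replicate 1 than in replicate 2.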

How the data were processed

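Total RNA libraries were made with a stranded kit, per the labels' protocols. The authors deposited FPKM values of every library in a single table. FastQC, HISAT2 2.0.4 and the build GRCm39 are named in the submitters' processing notes, and the counter, its strand setting and its annotation are not given in the sources used here. Positions equal those of GENCODE M21 on GRCm38 for 98.3% of 54409 shared identifiers, so coordinates are given on GRCm38. Multiplied by gene length and divided by what a read is worth in its library, 100% of values came out whole within 0.01, which gave the reads. From 54532 entries, 27 symbols turned into dates were restored and 100 symbols on several entries summed.

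A gene was kept where 2 or more libraries reached 0.5 FPKM. Values of log2(FPKM + 1) from the 6 libraries entered one limma model (limma 3.58.1, R 4.3.3; a mean per group, trended prior variance, two-sided) with Benjamini-Hochberg adjustment over all 16254 genes. An exact permutation test of 2 against 2 cannot go below p = 0.333 and was not used. A count of 0 allows 3 reads, 0.169 to 0.201 FPKM for 1 kilobase. The series text gives 2 mice per genotype, so replicates were taken as separate animals. Replicate pairs exceeded sampling noise (chi-square over degrees of freedom 108, 23.6 and 10.8 in shCSB/shNDN, shCSB and shControl). Members and gene lists were chosen with earlier results of these data known. Wider-list genes named are up to 3 per list and comparison with the smallest unadjusted p under 0.05, beside Nfe2l2, Keap1 and Hmox1, and the 5 genes nearest to the member with the largest statistic in shCSB/shNDN against shControl. The steps were tested on simulated reads with an equal spread in every library. The larger spread of the shCSB/shNDN pair was not simulated. Alternatives were another pseudocount, other filters, the replicate block, 4 libraries, other scalings, limma-voom on the reads and leaving out each library.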

Additional observations from a re-analysis of the deposited data

How the results depend on the processing

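No member passed the threshold under any alternative apart from Nqo1 without shCSB/shNDN replicate 1. The number of genes called in all was 0 for shCSB/shNDN against shCSB, 0 for shCSB against shControl and 1 for shCSB/shNDN against shControl. With only the 4 libraries compared, shCSB against shControl had 2 and shCSB/shNDN against shControl 0. Without a filter the last had 0, and by limma-voom 6. With the replicate number as a block it had 3. Deviations of same-numbered libraries correlated at -0.071 to 0.054, so no pairing by number was seen. A weak pairing could be missed with 2 libraries per group. Leaving out each library gave 0 to 1 for shCSB against shControl, 0 to 893 for shCSB/shNDN against shCSB and 0 to 1808 for shCSB/shNDN against shControl, the highest of these without shCSB/shNDN replicate 1, where the lone library is assumed to vary like the other groups; without replicate 2 the counts were 484 and 628. The cause was not tested. The blocked fit moved no call of a member.

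Signs of small changes turned. For shCSB against shControl, quantile normalization gave 0.013 for Sod1, 0.018 for Cat and 0.11 for Gpx1, and limma-voom 0.052 for Cat and 0.052 for Gpx1. For shCSB/shNDN against shControl, limma-voom gave 0.082 for Gclc and 0.079 for Gclm. With each library left out, shCSB against shControl ran from -0.15 to 0.36 for Gclm, -0.016 to 0.19 for Prdx1, -0.28 to 0.083 for Sod1, -0.15 to 0.082 for Cat and -0.084 to 0.016 for Gpx1. For shCSB/shNDN against shCSB the range was -1.55 to -0.69 for Nqo1, -0.52 to 0.20 for Gclc, -0.39 to 0.12 for Gclm, -0.014 to 0.12 for Txnrd1, -0.38 to 0.051 for Srxn1, -0.059 to 0.29 for Prdx1, -0.33 to 0.042 for Sod1, -0.41 to 0.0050 for Sod2, -0.56 to 0.18 for Cat and -0.14 to 0.53 for Gpx1. For shCSB/shNDN against shControl it was -1.05 to -0.19 for Nqo1, -0.38 to 0.33 for Gclc, -0.084 to 0.023 for Gclm, -0.60 to 0.15 for Cat and -0.17 to 0.49 for Gpx1. Of 450 recomputed changes of the members, 419 kept sign and side of the threshold. Other filters, the replicate block and the fit on 4 libraries cannot move a change, only its p. The same holds for leaving out a library outside the comparison. The 419 thus overstates how stable the changes are. Depth limits Nqo1 most, with 8 to 84 reads per library.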
